A study of Rattus norvegicus with 60 samples.

Results

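The expression of miR-132 and miR-212 was followed in rat retina through 5 reperfusion times after ischemia. They are 2 of the 350 rat miRs on the arrays and were chosen by name, as rno-miR-132 and rno-miR-212. No measured value entered that rule, but earlier results of these data were known. Whole retinas of 60 male Long Evans hooded rats of 250 to 300 g were measured on 1 miR array each. In the ischemia-reperfusion (IR) groups, pressure in the anterior chamber of 1 eye was held at 110 mmHg for 60 min and then released, and the retina was taken at once (0 h), 2 h, 24 h or 48 h later, or after 7d. In the sham control groups the eye was cannulated under the same anesthesia without high pressure and taken at the same times, which gave 10 groups of 6 rats. No age, genotype or transgene is given in the labels. In RNA of whole retina, fewer cells of a type and less RNA per cell cannot be told apart.

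Both miRs are processed from neighboring hairpins of 1 locus, and in neurons their transcription is known to be switched on by synaptic activity and neurotrophins through the transcription factor CREB. miR-132 is best known for promoting dendrite growth and for shaping spines, and in the suprachiasmatic nucleus it is induced by light. It is also known in endothelial cells, where it represses a Ras GTPase-activating protein during vessel growth. miR-212 shares the seed, the stretch of a miR that pairs with its target mRNAs, and so shares many predicted targets.

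The mature sequences are shown because the arrays have to separate 2 miRs that start alike. They are from RefSeq on rat build GRCr8, both on the plus strand, and the capitals mark the seed, bases 2 to 8 counted from the 5′ end. The array's rno-miR-132 and rno-miR-212 were matched to the 3p strands of the hairpins. The ends of their probe targets lie 280 bases apart in the array annotation (build rn4), as do the ends of the 3p strands in GRCr8, while those of the 5p strands lie 282 bases apart. miR-132 lies at chr10:60522091-60522112 and miR-212 at chr10:60521811-60521832, in the hairpin genes Mir132 and Mir212.
rno-miR-132-3p: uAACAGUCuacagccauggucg
rno-miR-212-3p: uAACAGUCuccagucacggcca

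Among 724 mature rat sequences in the RefSeq table, only these 2 carried this seed. They matched at 17 of 22 positions and were identical over the first 9 bases. The 5 differences, with the base of miR-132 first and the base of miR-212 last, were A10C, C14U, U17C, U20C and G22A. Each miR had 2 probes with 10 spots each. The miR-132 probes target 16 and 15 bases (rn4, chr10:62480791-62480806 and chr10:62480792-62480806), and the miR-212 probes target 13 and 14 bases (rn4, chr10:62480514-62480526 and chr10:62480513-62480526). How much of one miR binds to the probes of the other was not tested.

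The signal of a miR is the sum over its probes in signal units, after background subtraction. Here the arrays were brought to 1 common 75th percentile, taken over the 57 miRs that all 60 arrays detected, and values are given as log2 of the scaled signal. Differences between IR and sham control were fitted with limma over 159 miRs, those that every array of some group detected. Adjusted p values are Benjamini-Hochberg values over those 159 miRs, and a miR passes the study's rule at a fold change of at least 2 with an adjusted p of at most 0.05. Both members entered the fit. miR-132 was detected on 56 of 60 arrays and miR-212 on 59 of 60, and all 5 of these missing detections were in IR 7d.

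Brightness differed between the groups and bears on everything that follows. It is given here as the log2 of each array's 75th percentile relative to the mean of all arrays. IR 24 h and IR 7d held the dimmest arrays, at -1.40 ± 0.57 and -1.51 ± 0.47 (SD, n = 6), while sham control 24 h and 7d stood at 0.76 ± 0.35 and 1.07 ± 0.24. The IR arrays at 0 h and 48 h averaged -0.33 and -0.41 against 0.73 and 0.78 in sham control, and at 2 h the groups were alike, at 0.17 and 0.13. The arrays lay on 9 slides, of which 2 held both treatments, and were scanned on 3 days with equal numbers of each treatment. No slide held IR and sham control arrays of the same time. Within a time, slide and treatment therefore cannot be told apart, for brightness and for the miRs alike.

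miR-132 was lower in IR retinas 7d after ischemia, except under one background correction described further on. Its scaled signal ran from 4.43 through a median of 5.30 to 5.79 on the 6 IR 7d arrays, and from 5.85 through 5.95 to 6.19 on the 6 sham control arrays. Every IR array was below every sham control array. The means were 5.26 ± 0.45 and 5.99 ± 0.12 (SD, n = 6 each), a fall of 1.66-fold (IR minus sham control -0.73, SE 0.11, limma adjusted p = 1.67e-07). In limma all 10 groups share 1 estimate of the spread, and the SD of miR-132 was wider in IR 7d than in any other group. This SE, and those of later limma comparisons of miR-132 with IR 7d, are therefore too small. An exact permutation test of these arrays gave p = 0.0022 (adjusted p = 0.0052). The fall did not reach the study's rule of 2-fold, which 18.2% of the miRs passed at 7d. Among all miRs tested at 7d, 39.6% were lower at this adjusted p, 41.5% had groups that did not overlap and the median difference was -0.15. A more negative difference than that of miR-132 was found for 32 of the other miRs.

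The signals behind this difference were small. Before scaling, miR-132 lay between 4.09 and 23.6 signal units on the IR 7d arrays and between 115 and 185 on the sham control arrays. It was detected on 2 of the 6 IR 7d arrays, replicates 5 and 6, at scaled signals of 5.79 and 5.48. The lowest value, 4.43, belonged to replicate 4, the dimmest array of the series. Without that array the difference was -0.57, so no single array carried it. On the other 3 arrays without detection the values lay between 5.24 and 5.35. The size of the 7d fall thus rests mostly on undetected signals. Of 120 spots of miR-132 probes in IR 7d, 12 were well above background, against 119 of 120 in sham control 7d.

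**Figure D1:**
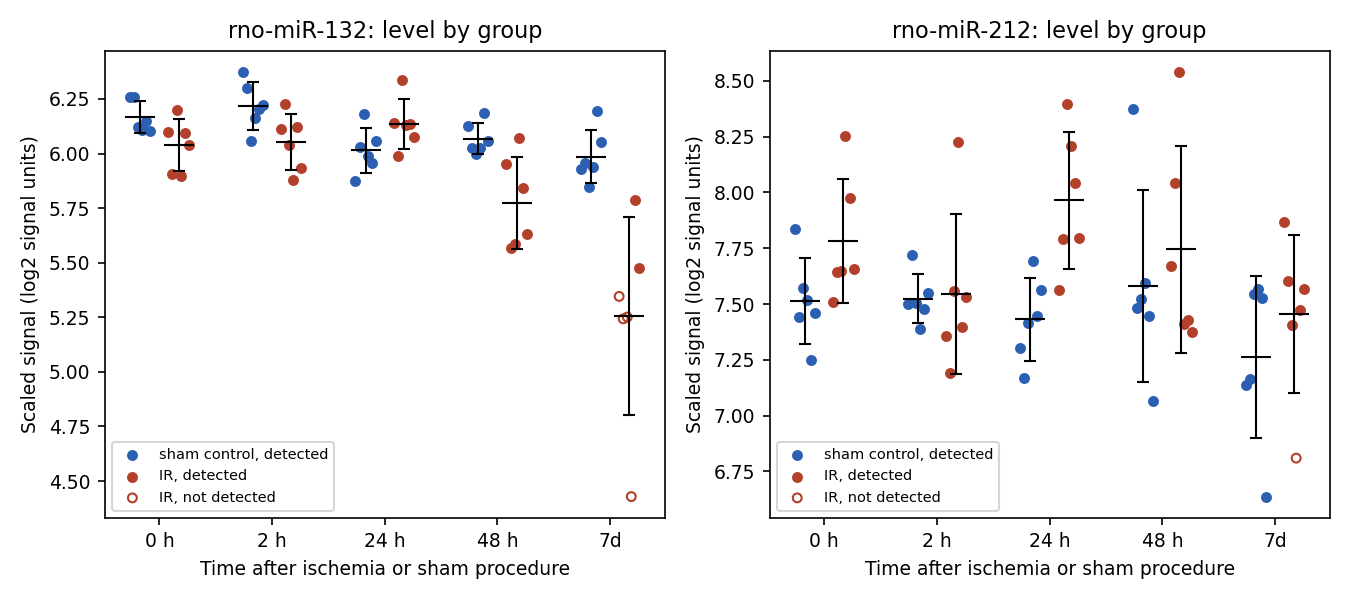
Log2 scaled signal of miR-132 (left) and miR-212 (right) on each array by time, with sham control in blue and IR in red; bars give the group mean ± SD (n = 6) and open points are arrays where the miR was not detected. All 6 IR 7d values of miR-132 lie below the sham control 7d values, and IR 24 h values of miR-212 lie mostly above those of sham control 24 h.

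At the earlier times miR-132 differed less. At 48 h it ran from 5.57 through 5.74 to 6.07 in IR and from 6.00 through 6.04 to 6.18 in sham control, and 5 of 6 IR arrays were below every sham control array. The fall was 1.23-fold (-0.29, SE 0.11, limma adjusted p = 0.020), at a time when 35.2% of the miRs tested were lower at this adjusted p and the median difference was -0.15. Leaving out IR 48 h replicate 2, 3 or 6 raised this adjusted p to 0.063, 0.059 and 0.051, and a fit that included array brightness gave 0.13. Under normexp, the other background correction described further on, the 48 h difference turned to 0.69. At 24 h the difference was 0.12 (95% interval -0.10 to 0.34, limma adjusted p = 0.33), and it was -0.19 and -0.12 when scaled over all 350 miRs or by quantiles. The values ran from 5.99 through 6.13 to 6.34 in IR and from 5.87 through 6.01 to 6.18 in sham control, and the groups overlapped. Counting those scalings, 6 settings made the 24 h difference negative, while under normexp it was 0.78 and passed. Its sign is therefore not settled.

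At 0 h, when pressure had just been released, miR-132 stood at 6.04 ± 0.12 in IR and 6.17 ± 0.07 in sham control. The difference was -0.13 (95% interval -0.34 to 0.09, limma adjusted p = 0.53), although 5 of 6 IR arrays were below every sham control array. At 2 h the means were 6.05 ± 0.13 and 6.22 ± 0.11, with a difference of -0.17 (95% interval -0.38 to 0.05, limma adjusted p = 0.55). At both of these times few miRs were called by adjusted p, 12.6% at 0 h and 7.55% at 2 h. Scaled over all 350 miRs instead, the difference at 0 h was -0.45 (limma adjusted p = 0.00078), and that scaling moved the median of all miRs tested to -0.29. In all, 5 settings made the 0 h fall pass by adjusted p. Besides that scaling, they were quantile normalization, no normalization, the authors' own table of values and averaging log2 signals over probes. Under normexp the sign at 0 h turned.

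miR-212 was higher in IR retinas at 24 h, although without normalization between arrays it was lower (-1.62, where the median of all miRs tested was -2.03). Scaled, it ran from 7.56 through 7.92 to 8.39 on the IR 24 h arrays and from 7.17 through 7.43 to 7.69 on the sham control arrays. In IR, 5 of 6 arrays were above every sham control array, and the remaining one was above the sham control mean. The means were 7.96 ± 0.31 and 7.43 ± 0.19 (SD, n = 6 each), a rise of 1.45-fold (0.53, SE 0.18, limma adjusted p = 0.013). At 24 h 24.5% of the miRs tested were higher at this adjusted p, and the median difference was -0.13. The rise did not reach the 2-fold rule, which 18.2% of the miRs passed at 24 h. It was 0.50 with an adjusted p of 0.18 when array brightness entered the limma fit, and 0.22 and 0.27 (adjusted p = 0.28 and 0.16) after scaling over all miRs and after quantile normalization. Those last 2 moved the median of all miRs tested at 24 h to -0.42 and -0.34, so that miR-212 stood 0.64 and 0.62 above the median, against 0.66 in the scaling used here. Under normexp, the other background correction described further on, miR-212 stood below the median of all miRs tested (0.87). In all, 6 settings lost the 24 h call. Besides those above, they were the authors' own table of values, slide as a fixed block and averaging log2 signals over probes.

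At the other times miR-212 did not pass the test. At 0 h the IR arrays averaged 7.78 ± 0.28 and the sham control arrays 7.51 ± 0.19 (difference 0.27, 95% interval -0.10 to 0.64, limma adjusted p = 0.40). At 2 h the means were 7.54 ± 0.36 and 7.52 ± 0.11, with a difference of 0.02 (95% interval -0.35 to 0.39). At 48 h the difference was 0.16 (95% interval -0.21 to 0.53), and both groups were wide, from 7.38 to 8.54 in IR and from 7.07 to 8.38 in sham control. At 7d it was 0.19 (95% interval -0.18 to 0.56, limma adjusted p = 0.37), with values from 6.81 through 7.52 to 7.87 in IR and from 6.64 through 7.35 to 7.57 in sham control. Before scaling, miR-212 lay between 21.3 and 107 signal units in IR 7d, against 278 to 384 in sham control 7d. It was thus further from the detection limit than miR-132, and 97 of its 120 spots in IR 7d were well above background.

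**Figure D2:**
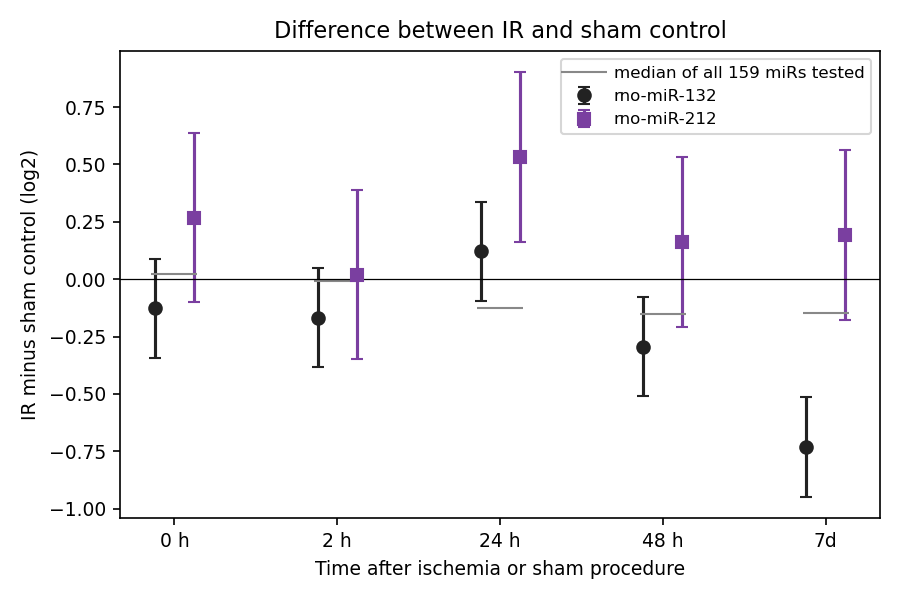
IR minus sham control on the log2 scale for miR-132 (circles) and miR-212 (squares) at each time, with 95% intervals from the limma fit; grey bars mark the median of all 159 miRs tested. At 24 h the interval of miR-212 lies above 0 and at 48 h and 7d that of miR-132 lies below 0.

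The difference between the 2 miRs on the same array is free of the array's scaling, because both values are multiplied by the same factor. Its absolute size depends on the probes and was not read, only its change between groups. At 7d, miR-132 minus miR-212 ran from -2.52 through -2.26 to -1.69 in IR and from -1.70 through -1.27 to -0.59 in sham control. In IR, 5 of 6 arrays were below every sham control array. The means were -2.20 ± 0.30 and -1.28 ± 0.40, so that the balance had moved by -0.92 away from miR-132 (95% interval -1.38 to -0.47, two-sided exact permutation p = 0.0043, adjusted p over the 5 times = 0.022). The smallest p that 6 against 6 arrays can give is 0.0022. miR-132 was detected on only 2 of the 6 IR 7d arrays, and on replicate 4 miR-212 was not detected either. The 7d change thus rests mostly on undetected signals of miR-132, and a difference on the same array is not free of background. Under the normexp background correction the change turned to 0.28 at 7d, and to 0.21, 0.22 and 0.38 at 0 h, 24 h and 48 h.

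At 24 h the same balance had moved by -0.41 (-1.83 ± 0.24 in IR and -1.42 ± 0.20 in sham control, exact permutation p = 0.015, adjusted p = 0.036). At 0 h it had moved by -0.40 (-1.74 ± 0.35 and -1.35 ± 0.18, exact permutation p = 0.022, adjusted p = 0.036), and here the adjusted p was between 0.054 and 0.087 without IR 0 h replicate 2, 4, 5 or 6 or without sham control 0 h replicate 2, 3, 4, 5 or 6. The changes of -0.19 at 2 h and -0.46 at 48 h did not pass (exact permutation, adjusted p = 0.44 and 0.20), with 95% intervals of -0.68 to 0.31 and -1.14 to 0.23. With the brightness of the arrays removed by regression within groups, the changes at 0 h and 24 h were -0.33 and -0.27 (exact permutation, adjusted p = 0.11 for both), and the 7d call was kept.

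**Figure D3:**
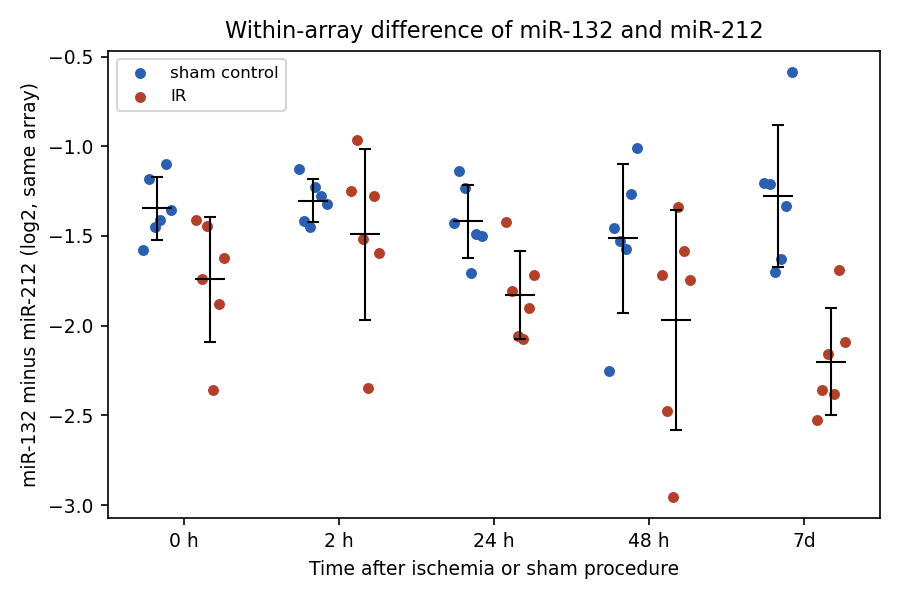
Log2 signal of miR-132 minus that of miR-212 on the same array, by time, with sham control in blue and IR in red; bars give mean ± SD (n = 6). The IR 7d arrays lie between -2.52 and -1.69, and 5 of the 6 are below every sham control 7d array. Arrays without detection are not marked, and miR-132 was detected on 2 of the 6 IR 7d arrays.

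The IR 24 h and IR 7d arrays were nearly equally dim, so these groups were also set against each other, a comparison chosen after the values were seen. Before scaling, miR-132 lay between 16.7 and 39.6 signal units in IR 24 h and was detected on all 6 arrays. Only 35 of its 120 spots in IR 24 h were well above background, against 12 of 120 in IR 7d, so it was weakly measured in both groups. After scaling, the 6 IR 7d values (4.43 to 5.79) were all below the 6 IR 24 h values (5.99 to 6.34). The difference was -0.88 (SE 0.11, limma adjusted p = 1.04e-08), while 6.29% of the miRs tested had IR 7d and IR 24 h groups that did not overlap and 11.9% were lower at 7d by adjusted p. The miR-132 difference was -0.04 under normexp and -0.84 without normalization, and passed in neither. For miR-212 the same difference was -0.51 (SE 0.18, limma adjusted p = 0.047). That call was lost without IR 24 h replicate 2, 3, 4 or 5 or without IR 7d replicate 3, 4, 5 or 6 (limma adjusted p = 0.052 to 0.21), and was smallest, at -0.38, without IR 7d replicate 4.

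**Figure D4:**
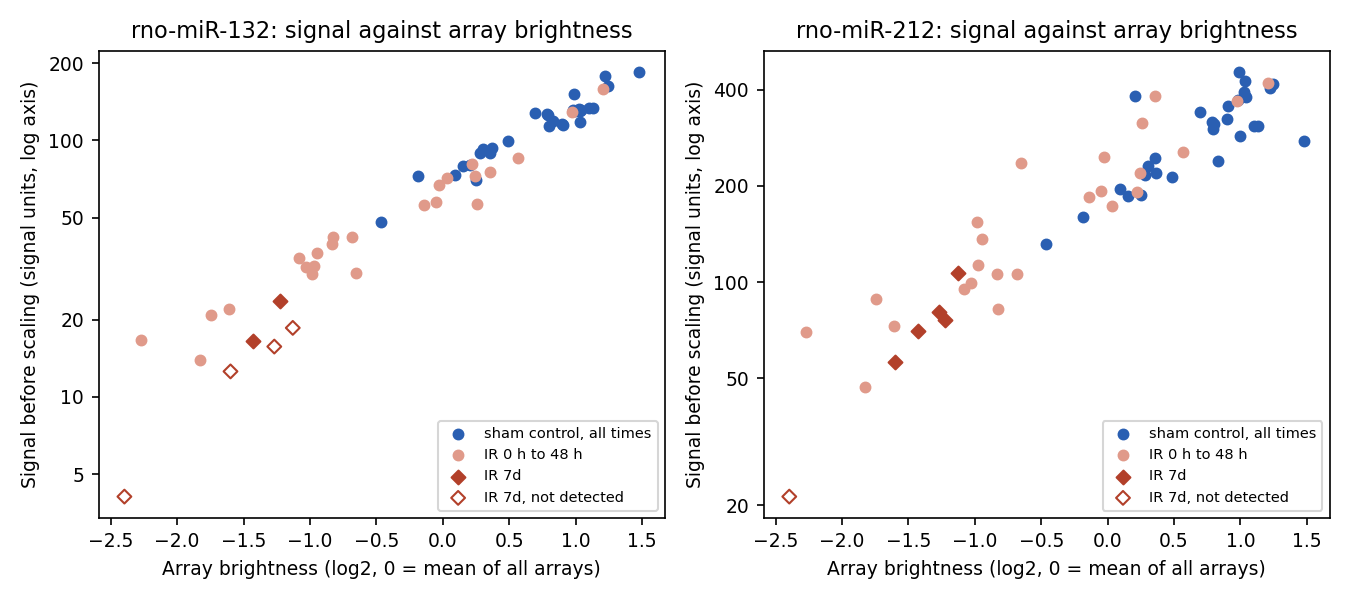
Signal before scaling (log axis) of miR-132 (left) and miR-212 (right) against array brightness (log2, 0 is the mean of all 60 arrays); blue points are sham control, light red points IR 0 h to 48 h and diamonds IR 7d, open where not detected. Both signals follow brightness over all arrays, and the IR 7d arrays sit at the dim end, where miR-132 lies between 4.09 and 23.6 signal units.

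The IR effect on miR-132, meaning IR minus sham control, differed between times. The effect at 7d was lower than that at 24 h by 0.85 (difference of effects -0.85, SE 0.15, limma adjusted p = 0.00013), a change that 1.89% of the miRs tested showed in this direction. It was also lower than at 0 h (-0.60, adjusted p = 0.0045) and at 2 h (-0.56, adjusted p = 0.0035), where 22% and 31.4% of the miRs changed in this direction in the same limma test. Between 7d and 48 h the change was -0.44 (limma adjusted p = 0.11). Under normexp these 3 changes turned to 0.18, 0.42 and 0.99 (limma adjusted p = 0.75, 0.50 and 0.020), and without normalization the change from 24 h to 7d was -1.13 (adjusted p = 0.53). The changes from 0 h and 2 h did not pass with slide as a fixed block (limma adjusted p = 0.088 and 0.056), nor that from 2 h with brightness in the fit (adjusted p = 0.20). For miR-212 no pair of times passed, and the change from 24 h to 7d was -0.34 (95% interval -0.86 to 0.18, limma adjusted p = 0.55).

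Within the sham control groups miR-132 did not change past the threshold between 0 h and 7d (-0.18, limma adjusted p = 0.30), and miR-212 did not either (-0.25, adjusted p = 0.42). Within the IR groups miR-132 fell by 0.78 from 0 h to 7d (limma adjusted p = 6.79e-08, 28.9% of the miRs tested lower, but 0.19 under normexp), and miR-212 differed by -0.33 (limma adjusted p = 0.17). Ordered by mean, miR-132 was highest in sham control 2 h (6.22) and lowest in IR 48 h (5.77) and IR 7d (5.26), with the other 7 groups between 5.99 and 6.17. miR-212 was highest in IR 24 h (7.96), IR 0 h (7.78) and IR 48 h (7.74) and lowest in sham control 7d (7.26). No neighbors in either order differed past an adjusted p of 0.05 in exact permutation tests over 9 pairs. The nearest to it was IR 48 h against IR 7d for miR-132 (exact permutation p = 0.015, adjusted p = 0.14).

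The probes of each miR were fitted one by one among 358 probes. At 7d the miR-132 probes, A_26_P00001346 and A_26_P00001347, differed by -0.56 and -0.86 (limma adjusted p = 1.85e-07 and 7.60e-06). At 48 h they differed by -0.20 and -0.58 (adjusted p = 0.035 and 0.0016 in limma). At 24 h they disagreed in sign, with 0.21 for the first and -0.17 for the second (limma adjusted p = 0.030 and 0.37), so the small positive value of miR-132 at that time rested on its brighter probe. The second probe was at the floor on 2 IR 7d arrays and 1 IR 48 h array. The miR-212 probes were alike at 24 h, at 0.55 and 0.53 (limma adjusted p = 0.021 and 0.013).

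Although they come from 1 locus, no relation between the 2 miRs was found within groups once the arrays were scaled. With 1 array a rat, measurement noise and variation between rats cannot be told apart, so a shared variation may be hidden. Over 60 arrays, as deviations from the group means, Pearson's r was 0.08 (permutation p = 0.62 with labels permuted within groups) and Spearman's rho was -0.05 (permutation p = 0.75). With brightness removed, r was 0.08 (permutation p = 0.61). Before scaling, Pearson's r was 0.83 and Spearman's rho 0.77, both at the smallest p that 100000 permutations can give, 1e-05, and both signals carry the brightness of the array. Leaving out the 2 arrays farthest from the miR-132 median gave r = -0.17 after scaling and 0.77 before. Neither scaled miR followed brightness within groups (r = 0.15 for miR-132 and -0.03 for miR-212, permutation p = 0.29 and 0.86). These were 5 relations in all, and after Benjamini-Hochberg adjustment the relation before scaling alone passed (adjusted p = 5e-05, other permutation values 0.71 to 0.86).

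Over the 10 group means, the miRs most like miR-132 were miR-410 (r = 0.84), miR-329 (0.81), miR-129 (0.80), miR-434 (0.79) and miR-210 (0.79). These r values describe 10 points that share arrays and scaling. At 7d miR-434 differed by -0.42 and miR-210, the miR known for its induction by hypoxia, by -0.30, while miR-410 and miR-329 were detected on 0 of 6 IR 7d arrays and have only a bound there. The miRs most like miR-212 were miR-324-3p (0.93), miR-338* (0.92), miR-487b (0.89), miR-383 (0.86) and miR-125a-3p (0.82). Their differences at 24 h, which the choice by likeness to miR-212 partly fixes, were 0.67, 1.46, 0.70 and 0.72 for the first 4, while miR-125a-3p was detected on 0 of 6 IR 24 h arrays. None of the 5 was shared between the members. The r between miR-132 and miR-212 themselves was 0.18, and 80 of 158 miRs ran more like miR-132 than its cluster partner did.

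Of 14 other miRs known for links to neuronal activity and synapses, 9 were tested, and miR-134, miR-137, miR-188, miR-381 and miR-485 were detected on too few arrays. At 7d 6 of them were lower by limma adjusted p and none was higher, while 39.6% of all miRs tested were lower and 20.1% higher. Of the 6, miR-128 (-0.78), miR-181a (-0.46) and miR-125b-5p (-0.43) were detected in both groups. The others, miR-138, known to limit spine size, miR-219-5p and miR-329, were detected on 0 of 6 IR 7d arrays and on all 6 of sham control 7d, so they have only a bound in IR 7d and their differences are not given. The median difference of the 9, these included, was -0.46, against -0.15 over all miRs tested, and miR-124, which defines neurons, stood at -0.03. At 24 h 5 were lower and 1 higher, with a median of -0.37 against -0.13, while 35.8% of all miRs tested were lower. The one that was higher, miR-29a, differed by 0.33, and of the lower ones miR-138 was again detected on 0 of 6 IR arrays. Of the 5 light-regulated retinal miRs, miR-183 of the photoreceptor cluster alone passed at 7d, at 0.31, and their median of -0.11 was close to that of all miRs tested.

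Markers of the cells in a retina were read beside the 7d fall of miR-132, and their part in it was not tested. The summed signal of the 3 neuronal markers (miR-124, miR-9 and miR-128) ran from 13.4 to 13.7 on the log2 scale in IR 7d and from 13.3 to 13.9 in sham control, with 1 of 3 lower. That of the 3 photoreceptor markers (miR-96, miR-182 and miR-183) ran from 13.7 to 13.8 and from 13.6 to 13.8, with 1 of 3 higher. Among all miRs tested at 7d, 39.6% were lower and 20.1% higher by limma adjusted p, so counts out of 3 markers do not set these cell types apart. Of the 4 leukocyte markers only miR-150 was tested, and it was detected on 0 of 6 IR 7d arrays and 6 of 6 sham control 7d arrays. The summed leukocyte signal lay at 5.55 to 6.69 in IR 7d and 4.84 to 5.45 in sham control, mostly from signals that were not detected. miR-223 was detected on 2 of 6 arrays in each of these groups, and miR-142-3p and miR-142-5p on no array of the series. Of the pigment epithelium markers, miR-184 was at the floor on all 6 IR 7d arrays and detected on all 6 of sham control 7d, which gives only a bound, and miR-204 and miR-211 did not pass. The summed signal of these markers, miR-184 included, ran from 10.6 to 10.9 in IR and from 10.8 to 11.4 in sham control. Of the 4 muscle markers only miR-206 was tested, and it was higher by 1.34 at 7d and by 1.91 at 24 h. The summed muscle signal ran from 6.83 to 7.48 in IR 7d and from 5.81 to 6.41 in sham control, with miR-1 detected on 11 arrays, miR-133b on 7 and miR-133a on none.

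Both red cell markers were at the floor on all 7d arrays, with miR-451 detected on 1 array and miR-144 on none. For endothelium and mural cells 1 marker each was tested, miR-126 (-0.13) and miR-143 (0.08), and neither passed at 7d, while miR-126* and miR-145 were detected on no array. miR-126 was detected on only 2 of 6 IR 7d arrays, against 6 of 6 in sham control 7d, so its difference rests mostly on undetected signals. Their summed signals ran from 5.09 to 5.68 and from 5.71 to 6.20 in IR 7d and from 5.22 to 5.58 and from 5.79 to 6.09 in sham control.

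Within the scan days, each with 2 arrays a group at 7d, miR-132 differed by -0.65, -1.05 and -0.49 at 7d. The 24 h rise of miR-212 was 0.44, 0.70 and 0.23 within the days, the last from 1 array a group. With slide as a fixed block, the values were -0.99 for miR-132 at 7d (limma adjusted p = 2.50e-05) and 0.23 for miR-212 at 24 h (adjusted p = 0.49). As no slide held both treatments of 1 time, these values rest on arrays of other times that shared slides. They are not comparisons within a slide. One other background correction turned the sign of miR-132. Under normexp with an offset of 50 signal units, which adds the same amount to dim and bright arrays before scaling, miR-132 stood at 0.97 at 7d, while the median of all miRs tested stood at 1.15. Relative to that median miR-132 was 0.18 lower, against 0.58 lower in the processing used here. miR-212 at 24 h stood at 0.57 under normexp, which was 0.30 below the median of all miRs tested (0.87). The direction of miR-132 at 7d therefore holds for the background subtraction made by the scanner software and not for this correction.

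**Figure D5:**
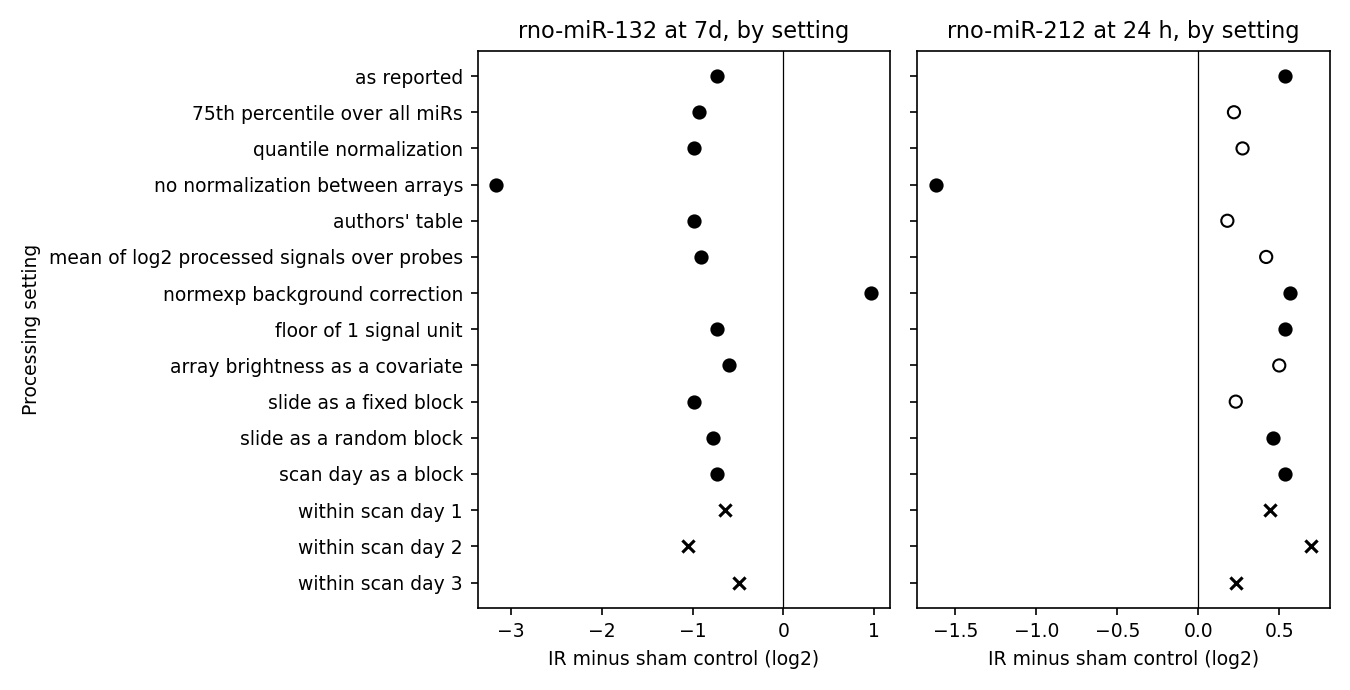
IR minus sham control (log2) of miR-132 at 7d (left) and miR-212 at 24 h (right) under each processing setting; filled points have an adjusted p of at most 0.05, open points do not, and crosses within scan days have no test. The normexp value of miR-132 (0.97) is the one setting above 0 on the left, and the values without normalization (-3.16 and -1.62) carry the brightness difference between the groups.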

How the data were processed

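The 60 arrays measured Cy3-labeled total RNA of whole retina. Per the file headers, the authors extracted them with Agilent Feature Extraction 9.5.3.1, which subtracted background and spatial trend. The deposited intensity values include a total signal per miR and a detection flag, with no normalization between arrays. A second deposited table, of log2 values for 219 features, was made by the authors with GeneSpring GX 10.0 (75% quantile per chip). Its 12600 values for 210 matched miRs were the log2 total signal (values under 1 set to 1) less a constant for each array (tolerance 0.001). Column medians lie between -0.856 and -0.409, so scale, centring and direction are known.

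Arrays were scaled by the 75th percentile of the 57 miRs found on every array. Signals under 6.20 units were set to that floor before log2 was taken. Precision is limited by the number of arrays. limma 3.58.1 in R 4.3.3 fitted 10 group means over 60 arrays for 159 miRs, and the fit was tested on simulated data. Exact two-sided permutation tests, correlations and figures used Python 3.11.15 with scipy 1.17.1. Groups came from the sample titles, which are taken as separate rats. No 2 arrays held identical signals (SD of log2 differences at least 0.16 within groups).

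The members and the lists of related miRs and cell markers were chosen with earlier results of these data known. Named miRs are the members, the 5 miRs with the highest correlation to each over the group means, and listed miRs that passed at a time when a member did; other listed miRs are given for their role. Alternatives covered scaling, background, floor, the miRs and arrays included, slide, scan day, replicate block, brightness, the prior and leaving out each array.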

Additional observations from a re-analysis of the deposited data

Results flagged for a closer look

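The IR effect on miR-132, IR minus sham control, differed between times when the change of the effect was tested in limma. The change was -0.85 from 24 h to 7d (SE 0.15, adjusted p = 0.00013), -0.60 from 0 h to 7d (adjusted p = 0.0045) and -0.56 from 2 h to 7d (adjusted p = 0.0035). Under the normexp correction they turned to 0.18, 0.42 and 0.99, and the first lost its call without normalization (-1.13, adjusted p = 0.53). All 3 changes use the IR 7d arrays, on 4 of which miR-132 was not detected. Their limma p values rest on a spread shared by all groups, which is smaller than that of miR-132 in IR 7d.

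One array stood apart from the other 5 of its group. For miR-212, IR 2 h replicate 4 had a scaled signal of 8.23, while the others lay between 7.19 and 7.56. The gap was 0.648 of the group's range, more than Dixon's test allows for 6 samples. Over the 30 groups checked (both miRs and their difference), this was the 1 case found, and chance alone gives about 5% of groups.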

How the results depend on the processing

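All values are IR minus sham control on the log2 scale unless stated, with limma adjusted p where one decides a call. Scaling to the 75th percentile over all miRs gave miR-132 -0.45 at 0 h (adjusted p = 0.00078) and -0.19 at 24 h, and gave miR-212 -0.052 at 0 h, -0.017 at 2 h, 0.22 at 24 h (adjusted p = 0.28) and -0.0081 at 7d. Quantile normalization gave miR-132 -0.38 at 0 h (adjusted p = 0.0077) and -0.12 at 24 h, and miR-212 -0.12 at 2 h and 0.27 at 24 h (adjusted p = 0.16). The authors' table gave miR-132 -0.44 at 0 h (adjusted p = 0.0024) and -0.23 at 24 h, and miR-212 -0.041 at 0 h, -0.00021 at 2 h, 0.18 at 24 h (adjusted p = 0.42) and -0.058 at 7d. Without normalization, miR-132 was -1.19 at 0 h (adjusted p = 0.0056) and -2.03 at 24 h, its change of effect from 24 h to 7d was -1.13 (adjusted p = 0.53), and sham control 7d minus 0 h was 0.16. miR-212 was then -0.79, -1.62, -1.03 and -2.39 at 0 h, 24 h, 48 h and 7d, IR 7d minus 0 h was -1.51 (adjusted p = 0.00043) and sham control 7d minus 0 h was 0.091.

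Averaging the log2 processed signals of the probes gave miR-132 -0.38 at 0 h (adjusted p = 0.029) and -0.20 at 24 h, and miR-212 -0.072 at 2 h, 0.42 at 24 h (adjusted p = 0.064) and -0.21 at 48 h. Normexp gave miR-132 0.54, 0.78 (adjusted p = 0.011), 0.69 and 0.97 at 0 h, 24 h, 48 h and 7d, a change of effect from 24 h to 7d of 0.18 and IR 7d minus 0 h of 0.19. It gave miR-212 0.68 at 7d (adjusted p = 0.00068), a change of effect of 0.12 and IR 7d minus 0 h of 0.055, and the within-array difference 0.21, 0.22, 0.38 and 0.28 at 0 h, 24 h, 48 h and 7d. With slide as a fixed block, miR-132 was -0.28 at 24 h and miR-212 -0.18 at 2 h and 0.23 at 24 h (adjusted p = 0.49), and with slide as a random block miR-212 was -0.022 at 2 h. With array brightness as a covariate, the calls were lost for miR-212 at 24 h (0.50, adjusted p = 0.18), miR-132 at 48 h (-0.23, adjusted p = 0.13) and the within-array difference at 0 h (-0.33) and 24 h (-0.27, adjusted p by exact permutation 0.11 for both).

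IR 7d minus IR 24 h, added after the values were seen together with the normexp and brightness settings of the within-array difference, lost its call for miR-132 without normalization (-0.84) and under normexp (-0.044). For miR-212 it was lost at -0.41 (scaling over all miRs), -0.34 (quantile), -0.62 (no normalization), -0.38 (mean over probes), -0.099 (normexp), -0.24 and -0.39 (slide fixed and random), -0.47 (scan day), -0.42 (authors' table), -0.51 with brightness (adjusted p = 0.052), and -0.51 under the highest floor (adjusted p = 0.062), with all miRs ever detected (adjusted p = 0.062) or with the 2 groups alone (adjusted p = 0.092). The changes of the miR-132 effect from 0 h and from 2 h to 7d were also run under these alternatives after the values were seen. Normexp turned them to 0.42 and 0.99. The change from 0 h did not pass with the mean over probes (-0.53, adjusted p = 0.086) or slide as a fixed block (-0.62, adjusted p = 0.088), nor that from 2 h with slide as a fixed block (-0.56, adjusted p = 0.056) or brightness (-0.43, adjusted p = 0.20). Leaving out 1 array at a time gave -0.71 to -0.44 and -0.67 to -0.40. The cause of these changes was not tested.

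Within the 3 scan days miR-212 was -0.017 and 0.73 at 0 h (days 1 and 2), -0.33 and 0.44 at 2 h, 0.59 and -0.45 at 7d, and 0.23 at 24 h on day 3. The change of effect from 24 h to 7d was 0.14, -1.14 and 0.21 for miR-212, and -1.21 and -0.51 for miR-132 on days 2 and 3.

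Leaving out 1 array at a time gave, for miR-132, the ranges -0.16 to -0.099, -0.20 to -0.13, 0.08 to 0.15, -0.35 to -0.25 and -0.84 to -0.57 at the 5 times in order. Its change of effect was -0.96 to -0.69, IR 7d minus 0 h -0.89 to -0.62, sham control 7d minus 0 h -0.22 to -0.15 and IR 7d minus 24 h -0.99 to -0.71. For miR-212 the ranges were 0.17 to 0.33, -0.12 to 0.09, 0.45 to 0.61, 0.0035 to 0.32 and 0.067 to 0.32 at the 5 times, -0.47 to -0.21 for the change of effect, -0.41 to -0.20 and -0.31 to -0.13 for 7d minus 0 h in IR and sham control, and -0.59 to -0.38 for IR 7d minus 24 h. At 2 h miR-212 was -0.12 without IR 2 h replicate 4 and -0.0067 without sham control 2 h replicate 4. The within-array difference ranged from -0.46 to -0.27, -0.29 to -0.017, -0.49 to -0.36, -0.60 to -0.26 and -1.03 to -0.79.

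Rats of IR and sham control with the same replicate number showed no steady relation (15 of 30 pairs above r = 0.1, range -0.45 to 0.60). The same number was the best match in 7 of the 30. Correlations this scattered cannot settle whether the numbers pair the rats. With the replicate block miR-132 was -0.73 at 7d (adjusted p = 9.55e-08) and miR-212 0.53 at 24 h (adjusted p = 0.011), and no call changed. The direction of miR-132 at 7d held under all alternatives but normexp, and that of miR-212 at 24 h under all but no normalization. With only miRs detected on all 60 arrays miR-132 is not among those tested, and it lies under a floor set at the highest detection limit on every array, so neither setting gave a value. Signal over background limits miR-132 in IR 7d most, where 12 of 120 spots were well above background.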
